A study of Laccaria bicolor with 37 samples.

Results

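The culture-age module comprised 96 of the 23130 gene models of the ectomycorrhizal fungus Laccaria bicolor S238N. They were selected because their transcripts fell with the age of the culture, to mean levels on plates with a poplar within 2-fold of those without one. Ectomycorrhizal material (EcM), which the labels call root tips, was all material on or close to roots of the hybrid poplar Populus tremula x alba, so it held root tissue as well as mycelium. Extramatrical mycelium (ExM) grew on those co-culture plates but farther from any root. Free-living mycelium (FLM) was grown without a poplar on plates otherwise handled alike. All plates held sugar-reduced P20 agar covered with cellophane, and all mycelium had been pre-cultured without a plant. EcM, ExM and FLM were sampled 3, 7, 14 and 21 days post-inoculation, and FLM also at the start (T0, day 0). The 37 libraries formed 13 groups of 3 libraries each, except ExM at 14 d and FLM at T0 with 2 each. The labels call the libraries of a group biological replicates. A single fungal strain and 1 plant clone were used, so the spread is that between cultures of a single genotype.

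Members were selected on their measured levels, as CPM, the count divided by the library total and scaled to 1e6 counts. The group mean plus 0.5 CPM at 21 d had to be at most 0.25 of that at 3 d in each of EcM, ExM and FLM. EcM over FLM and ExM over FLM had to lie between 0.5 and 2 at 3, 14 and 21 d, and FLM had to reach a mean of 10 CPM at 3 d. The size of the fall from 3 to 21 d and the likeness of the kinds of mycelium on those days are therefore given by the choice and are described here without a test. The levels at T0 and 7 d were not used, and 14 d entered only through the ratios to FLM. The fall by itself was met by 194 gene models, and the plant ratios and FLM level by 8138. CPM is a share of the library, so a lower CPM is not by itself a lower amount of RNA. It also falls where other transcripts rise. The RNA is from bulk material, in which fewer cells with a transcript and less of it per cell cannot be told apart.

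Growing hyphae replicate their DNA, package it in nucleosomes built of the core histones H2A, H2B, H3 and H4, and divide their nuclei along microtubules. Core histones and ribonucleotide reductase, the enzyme that makes the building blocks of DNA, are made mainly by cells that are copying their genome. Growth at the hyphal tip also needs new wall, including chitin, and a supply of carbon and nitrogen. Ectomycorrhizal fungi such as L. bicolor live on sugar from the host root in symbiosis, whereas on a plate they depend on the medium.

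Total counts per library, in units of 1e6 counts, lay between 13.82 and 36.82 with a median of 20.68. A count of 3 corresponded to 0.0815 CPM in the largest and 0.217 CPM in the smallest library, and 1 of all the library values of the members was at or below it. This floor covers counting error only. The EcM label was checked with 5 gene models that the study names as induced in mycorrhiza, some of them on the basis of these libraries. All 5 were higher in every EcM library than in every FLM library at 14 d. The small secreted protein MiSSP17, for example, lay between 10.3 and 14.3 CPM in EcM and between 0.00 and 0.234 CPM in FLM. In FLM at 21 d, replicate 2 had the highest of the 3 values for 76 of the 96 members, and members took 0.434% of its counts against 0.224% and 0.254% in replicates 1 and 3. Without that library the rule found 58 gene models, 56 of them among the 96. For the 76, leaving it out lowers the FLM mean at 21 d, so any of them lost were lost through the ratios to FLM. The likeness of those lost to FLM at 21 d thus rested on this library. Gene model 230488, for example, had 45.3, 21.8 and 39.8 CPM in ExM at 21 d, against 9.01 and 15.5 CPM in FLM replicates 1 and 3. In ExM at 21 d, replicate 2 had the lowest value for 83 members. At T0, replicate 2 was the higher of the pair for 66 members.

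Together the members took 2.35 ± 0.102% of the counts in EcM at 3 d, 1.36 ± 0.0839% at 7 d, 0.576 ± 0.0689% at 14 d and 0.307 ± 0.0463% at 21 d (SD, n = 3 each). In ExM the share was 2.45 ± 0.0302% at 3 d, 1.49 ± 0.0324% at 7 d, 0.822 ± 0.016% at 14 d (n = 2) and 0.391 ± 0.08% at 21 d. In FLM it was 2.13 ± 0.313% at T0 (n = 2), 2.32 ± 0.251% at 3 d, 1.72 ± 0.13% at 7 d, 0.724 ± 0.119% at 14 d and 0.304 ± 0.113% at 21 d. The median ratio of 21 d to 3 d was 0.144 in EcM, 0.192 in ExM and 0.144 in FLM, and the single lowest ratios were 0.0316, 0.0408 and 0.0273 in the same order. Just inside the limit lay gene models 229977, with a largest ratio of 0.2495, and 294450, with 0.2493. Just outside it lay 605160 with 0.2503 and 695096 with 0.2524, in each case the ratio in ExM.

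**Figure D1:**
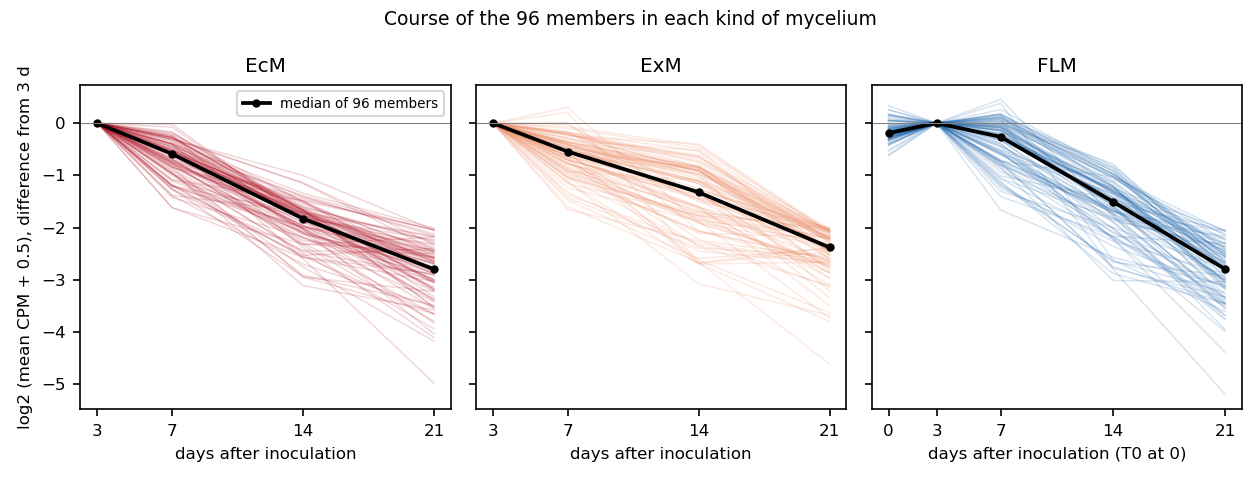
Difference in log2 (mean CPM + 0.5) from 3 d of the same kind of mycelium (y axis) against days after inoculation (x axis) for EcM, ExM and FLM; thin lines are the 96 members and the black line is their median. The lines meet at 0 on day 3 by construction, 20 FLM lines lie above 0 at 7 d against 3 in ExM and 0 in EcM, and all lines lie below -2 on day 21, as the rule requires.

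An annotation text or a RefSeq symbol was at hand for 37 of the 96 members, and the other 59 are known by number only. The study's annotation tables cover a part of the genome, 3441 gene models, of which 35 were members. The keyword lists read these tables only, so this is the share beside which their counts stand. Of 15 keyword lists, those with most members were DNA replication, histones and cell cycle (9 members of 142 gene models), secreted proteins (5 of 285), protein kinases and signalling (4 of 417) and carbohydrate-active enzymes (3 of 162). The lists for ribosome and translation (195 gene models), cytochrome P450 (26), proteases (134), chaperones (88) and terpenes (24) held 0 members. The count for protein kinases and signalling was near the share of all annotated gene models. At that share, the small lists for cytochrome P450, chaperones and terpenes would often hold 0 members. No list was tested against it. Transcript lengths of members ranged from 159 to 6727 nt with a median of 1245 nt, and the median of all gene models at 10 CPM or more in FLM at 3 d was 1422 nt.

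Abundance is ranked here by FLM mean CPM at 3 d, which is not scaled to transcript length. The most abundant member by this measure was gene model 658227, a transcript of 867 nt with no annotation. In EcM it had 1900, 2384 and 2268 CPM at 3 d, 1115, 1033 and 1207 CPM at 7 d, 382, 286 and 300 CPM at 14 d and 135, 88.0 and 138 CPM at 21 d. In ExM it had 2328, 2395 and 2408 CPM at 3 d, 1178, 1285 and 1375 CPM at 7 d, 769 and 787 CPM at 14 d and 339, 155 and 334 CPM at 21 d. In FLM it had 1577 and 2894 CPM at T0, 2293, 2019 and 2439 CPM at 3 d, 1511, 1646 and 1519 CPM at 7 d, 672, 696 and 441 CPM at 14 d and 102, 275 and 126 CPM at 21 d. No library of a later day overlapped one of an earlier day from 3 d on, in any of the kinds. It was followed in FLM at 3 d by 675479 with a mean of 1752 CPM, by 661891 with 1534 CPM and by 474696 with 1521 CPM. Of these, 661891 is annotated through its best match in the mushroom Coprinopsis cinerea with succinyl-CoA synthetase and ATP-citrate domains, found in enzymes that handle acyl-CoA in central carbon metabolism. Gene model 474696 is a histidine acid phosphatase, a type of enzyme that frees phosphate from organic compounds. At 3 d its 808.5, 857.1 and 851.2 CPM in EcM lay below the 1698, 970.1 and 1895 CPM in FLM. The next were 293463, 700975, 306794 and 185929, with means of 1120, 986, 837 and 594 CPM.

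Core histone genes made up 7 of the members, with at least 1 gene for each core histone. They were HTR16202 (251730), HTR16204 (170733) and HTR16206 (302849) for H3, HFO16203 (191150) for H4, HTA16203 (190640) and HTA16205 (192658) for H2A, and HTB16202 (185040) for H2B. The H2A gene HTA16205 had 385, 446 and 405 CPM in EcM at 3 d, 265, 266 and 295 CPM at 7 d, 132, 111 and 118 CPM at 14 d and 72.8, 61.0 and 71.9 CPM at 21 d. In ExM it had 432, 420 and 400 CPM at 3 d, 279, 325 and 334 CPM at 7 d, 199 and 226 CPM at 14 d and 110, 86.1 and 105 CPM at 21 d. In FLM it had 268 and 495 CPM at T0, 453, 438 and 474 CPM at 3 d, 409, 477 and 407 CPM at 7 d, 199, 202 and 147 CPM at 14 d and 81.7, 142 and 88.3 CPM at 21 d. The FLM libraries of 7 d overlapped those of 3 d, whereas all EcM and ExM libraries of 7 d lay below those of 3 d. Of the 7, the H3 genes had the lowest ratios in every kind of mycelium. HTR16202 reached 0.0652 of its 3 d level at 21 d in EcM, 0.0753 in ExM and 0.0476 in FLM, and HTR16206 reached 0.0719, 0.0886 and 0.0778. In FLM at 21 d, HTR16202 had 1.62 and 1.89 CPM in replicates 1 and 3 and 12.8 CPM in replicate 2.

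The RefSeq table of assembly V1.0 holds 20 histone symbols that could be matched by number, a list made after the members were seen. The other 13 followed several courses. HON16202 (306200), a linker histone H1, had 21 d over 3 d ratios of 0.101, 0.15 and 0.162 in EcM, ExM and FLM and stayed out because EcM over FLM at 14 d was 0.496. HFO16202 (191132, H4) missed the limit in FLM, with a ratio of 0.255. HTR16205 (191988, H3), HFO16210 (306722, H4), HTA16204 (296217, H2A) and HON16201 (306198, H1) had higher means at 21 d than at 3 d in all kinds. The member genes HTR16206 and HFO16203 lie next to each other in that table, as do HTB16202 and HTA16205. HTR16202 lies beside HFO16202, and HTA16203 beside HTB16201 (184986, H2B), and in both pairs the second gene was not a member. Copies of a histone gene are usually close to identical in sequence and reads could be placed at several gene models, so the split of counts among copies is uncertain.

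**Figure D2:**
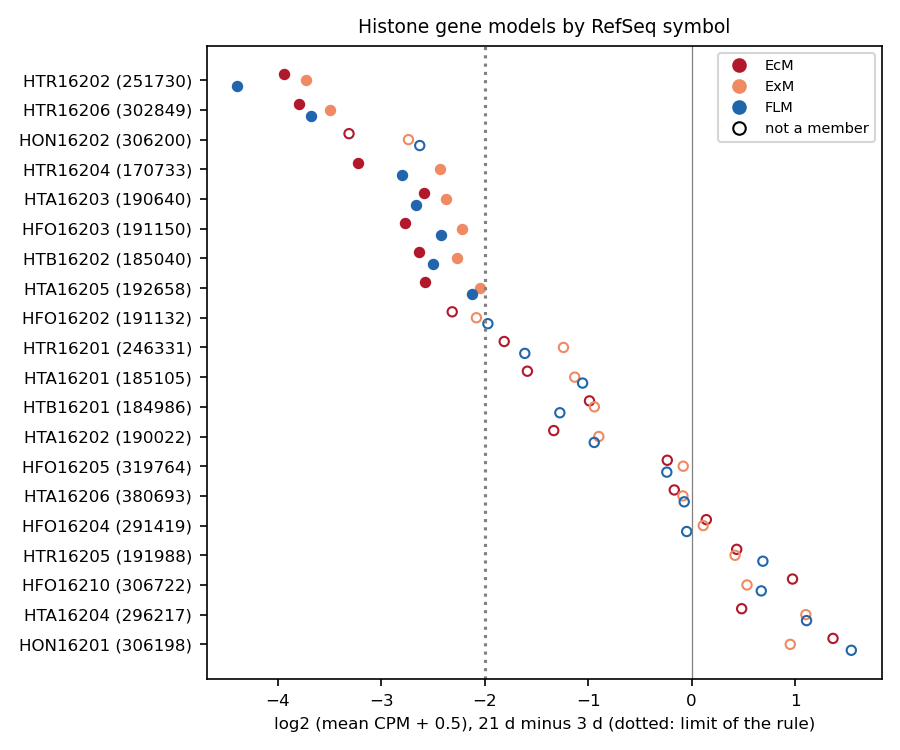
Difference in log2 (mean CPM + 0.5) between 21 d and 3 d (x axis) for the 20 histone gene models with a RefSeq symbol (rows), for EcM, ExM and FLM; filled points are members and the dotted line is the limit of the rule. The 7 members lie left of the line in all kinds by selection, and 4 gene models lie right of 0 in all kinds.

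The small subunit of ribonucleotide reductase, LbRNRbeta (230488), was also a member. It had 349, 409 and 371 CPM in EcM at 3 d, 235, 218 and 251 CPM at 7 d, 95.3, 62.5 and 71.3 CPM at 14 d and 35.2, 22.8 and 30.1 CPM at 21 d. In ExM it had 383, 361 and 359 CPM at 3 d, 230, 237 and 263 CPM at 7 d, 145 and 148 CPM at 14 d and 45.3, 21.8 and 39.8 CPM at 21 d. In FLM it had 197 and 458 CPM at T0, 382, 400 and 382 CPM at 3 d, 328, 389 and 347 CPM at 7 d, 134, 128 and 77.7 CPM at 14 d and 9.01, 48.9 and 15.5 CPM at 21 d. From 7 d on no library of a later day overlapped one of an earlier day in any kind.

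Annotation linked to nuclear and cell division was held by the kinesin-type motors 305733 and 617649, a class that moves along microtubules. The role of these gene models in division was not tested. Their FLM means at 3 d were 114 and 80.3 CPM. Also among the members were the cyclin-domain proteins 583039 and 581783 with 57.1 and 55.9 CPM, of a family in which some proteins drive the cell cycle. Gene model 308587, with 147 CPM, did not match the keyword for kinesins and was not counted in that list. No role in division is claimed for it here. Gene model 618858 matches a C. cinerea protein with the WD40 domain of anaphase-promoting complex subunit 4, part of the machinery that lets chromosomes separate. A chitin synthase, 246643, and 324099, which overlaps it in RefSeq and has no annotation, were both members. Reads from such overlapping models may not be told apart. Pheromone signalling was represented by 632625, a receptor of the STE3 type that senses pheromone peptides, and by Lbphb2 (313030), a pheromone gene by its symbol. The receptor had 144 CPM and Lbphb2 15.6 CPM in FLM at 3 d, and at 21 d the receptor was at 0.0946, 0.177 and 0.12 of its 3 d level in EcM, ExM and FLM.

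Some metabolic members had already come down by 7 d. Gene model 306794, a glycosyltransferase of family GT20 annotated with biosynthesis of trehalose, a storage and stress sugar of fungi, had 1019, 1080 and 1080 CPM in EcM at 3 d, 311, 344 and 379 CPM at 7 d, 216, 170 and 147 CPM at 14 d and 144, 108 and 135 CPM at 21 d. In ExM it had 1055, 1108 and 1013 CPM at 3 d, 372, 403 and 400 CPM at 7 d, 201 and 201 CPM at 14 d and 214, 152 and 182 CPM at 21 d. In FLM it had 695 and 699 CPM at T0, 886, 643 and 981 CPM at 3 d, 355, 342 and 362 CPM at 7 d, 187, 179 and 157 CPM at 14 d and 88.3, 155 and 95.8 CPM at 21 d. The largest step was thus between 3 and 7 d in every kind. Gene model 441719, of the aconitase and isopropylmalate dehydratase family that serves the citric acid cycle or leucine synthesis, had 118, 107 and 99.8 CPM in FLM at 7 d, below the 333, 175 and 353 CPM at 3 d. It had 63.3, 64.4 and 63.1 CPM at 14 d and 56.5, 56.4 and 60.1 CPM at 21 d, so that most of the fall was over by 14 d. In EcM it had 105, 122 and 149 CPM at 7 d against 388, 379 and 394 CPM at 3 d, and in ExM 117, 124 and 137 CPM at 7 d against 385, 371 and 393 CPM at 3 d. Other members with a metabolic role, whatever their timing, were a glutamate dehydrogenase-family enzyme, 292653, which links carbon and nitrogen metabolism, triosephosphate isomerase, 184184, of glycolysis, and a cyclopropane fatty acid synthase, 295662. Gene model 611935, annotated with hydrolysis of glycosidic bonds, had 231, 274 and 236 CPM in FLM at 7 d against 248, 258 and 255 CPM at 3 d, and these libraries overlapped. In 292653 the libraries varied widely, with 34.7, 210 and 74.6 CPM in FLM at 21 d and 630 and 194 CPM at T0.

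The predicted secretome contributed 5 members, mostly small secreted proteins of unknown function. The most abundant, 705940, had 326, 414 and 384 CPM in EcM, 422, 441 and 465 CPM in ExM and 425, 112 and 686 CPM in FLM at 3 d. At 14 d it had 57.2, 34.7 and 52.6 CPM in EcM, 69.4 and 67.4 CPM in ExM and 69.6, 52.3 and 28.1 CPM in FLM, and at 21 d it stood at 0.107, 0.182 and 0.122 of its 3 d level. The low value in FLM at 3 d was that of replicate 2, which was also the lowest of the group for 58 of the 96 members. The next, 309480, had a mean of 202 CPM in FLM at 3 d and fell to 0.169, 0.149 and 0.223 of its 3 d level in EcM, ExM and FLM.

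**Figure D3:**
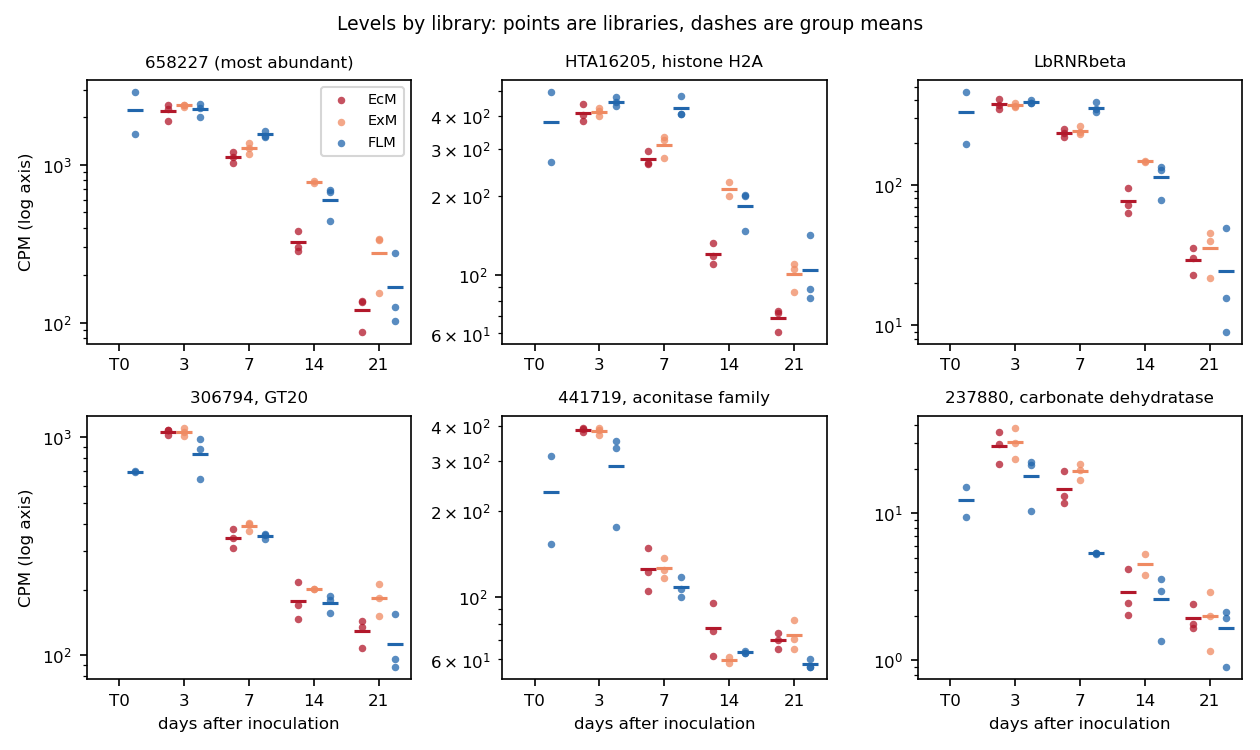
CPM on a log axis (y) by day (x) for 6 members; each point is a library of EcM, ExM or FLM and each dash a group mean. In FLM the 7 d points of HTA16205 and LbRNRbeta overlap those of 3 d, those of 306794 and 441719 lie below all of 3 d, and 237880 at 7 d is lower in FLM (5.30 to 5.36 CPM) than in EcM or ExM (11.7 to 21.6 CPM).

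The time at which members fell was described by the share of the log2 difference between 3 and 21 d that was reached on the days between. By 7 d the median share over the 96 members was 22.3% in EcM, 21.5% in ExM and 8.87% in FLM, and the SD of this median over the 7 d libraries was 3.95, 1.49 and 3.79 percentage points. By 14 d EcM had reached 66.1%, ExM 53.1% and FLM 52.8%, with SDs of 6.31, 2.08 and 8.77 points. The mean at 7 d was above that at 3 d for 20 members in FLM, 3 in ExM and 0 in EcM. Averaged over the kinds, the most advanced members at 7 d were 441719 with 64.8%, 702398 with 55.7% and 306794 with 51.0%. Gene model 702398 is annotated as a transporter of the major facilitator type and carries a DUF1275 domain. The least advanced were 641405 with -5.10%, 709888 with -2.81% and 619720 with 0.494%, all without annotation. A negative share comes from a mean at 7 d above that at 3 d, which 641405 and 709888 had in ExM and FLM but not in EcM.

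Grouped by annotation, the 11 members of the replication, histone and cell cycle lists had reached a median of 15.5% by 7 d, with a range of 3.56% to 29.8%. The 8 members of the metabolism and transport lists had reached a median of 39.4%, with a range of 4.67% to 64.8%, the lowest being the chitin synthase 246643. LbRNRbeta, counted in that group through the oxidoreductase list, stood at 13.2%, inside the range of the replication group, and 611935 at 7.39%. The 5 predicted secreted proteins lay between 25.5% and 38.2% with a median of 32.8%, and the 72 remaining members had a median of 17.7%. By 14 d the medians were 54.8%, 70.4%, 80.3% and 54.4% in the same order. These groups were formed with the values known and are given as a description.

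**Figure D4:**
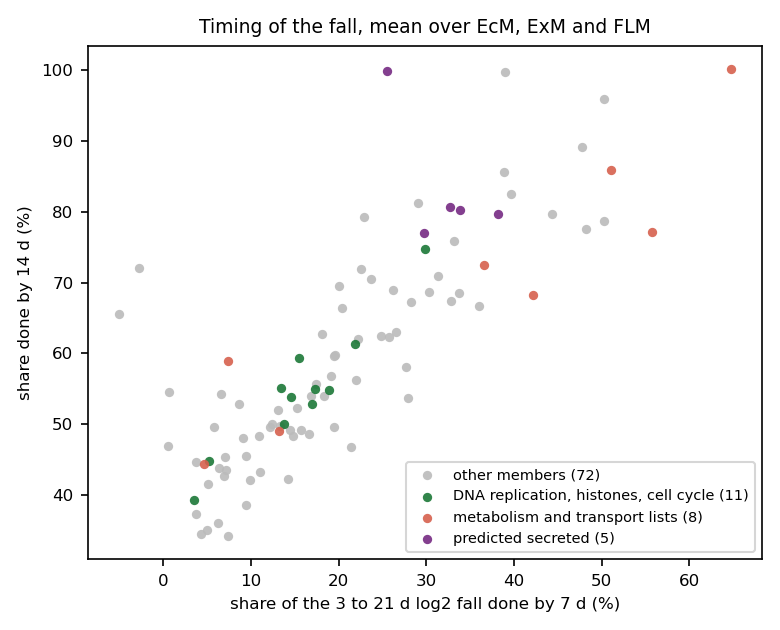
Share of the log2 fall from 3 to 21 d reached by 7 d (x axis, %) and by 14 d (y axis, %), each the mean over EcM, ExM and FLM; each point is a member, coloured by annotation. The 11 replication, histone and cell cycle members lie between 3.56% and 29.8% on the x axis, and the 3 members furthest right are 306794, 702398 and 441719.

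Whether the levels changed between 7 and 14 d was tested in each kind with the quasi-likelihood test of edgeR over all 15533 gene models that passed the filter on low counts, which all 96 members passed. A gene model was called at an adjusted p (Benjamini-Hochberg) under 0.05 and a change of 2-fold or more. Since members had to fall between 3 and 21 d, a lower level at 14 d was likely by selection. The counts describe this step only. They do not place the fall in it, because the steps from 3 to 7 d and from 14 to 21 d were not tested. The median share of the fall reached by 14 d was 66.1% in EcM, 53.1% in ExM and 52.8% in FLM, so part of it came later. In EcM 73 of the 96 members were lower at 14 d, against 5.31% of all gene models tested. In ExM 32 members were lower, against 2.66%. In FLM 76 members were lower, against 2.74%. By adjusted p alone, whatever the size, the counts were 93 in EcM, 55 in ExM and 93 in FLM, where 17.8%, 10.1% and 14.7% of all gene models were lower. The median log2 fold change of members was -1.32 in EcM, -0.79 in ExM and -1.22 in FLM, and the medians of all gene models were 0.00, 0.01 and 0.03. The ExM comparison rests on 2 libraries at 14 d, and whether the kinds differed in this step was not tested because the rule had limited their ratios at 14 d.

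By DESeq2 the counts were 73 in EcM, 33 in ExM and 83 in FLM, beside 851, 466 and 471 of all 15533 gene models. Among the histones, HTA16205 changed from 7 to 14 d by -1.20 ± 0.16 (log2 fold change ± SE) in EcM (adjusted p = 1.34e-06), by -0.64 ± 0.18 in ExM (adjusted p = 0.0111, under 2-fold) and by -1.27 ± 0.16 in FLM (adjusted p = 6.99e-07). All 7 histone members were called lower in EcM and in FLM, and 1, HFO16203, in ExM, with -1.05 ± 0.19 (adjusted p = 0.000352). LbRNRbeta changed by -1.63 ± 0.36 in EcM (adjusted p = 0.00101) and by -1.67 ± 0.36 in FLM (adjusted p = 0.000875), while in ExM the value was -0.82 ± 0.40 (adjusted p = 0.154). Over the whole list of DNA replication, histones and cell cycle, 139 of 142 gene models were tested. At 14 d 18 were lower in EcM, 3 in ExM and 12 in FLM, and 2 were higher, both in FLM. The medians were -0.03, -0.07 and 0.07. Of all gene models, 5.31%, 2.66% and 2.74% were lower, so the ExM count was not above that share. The list includes members, which were selected for falling. Of its 9 members, 8 were lower in EcM, 0 in ExM and 9 in FLM. In ExM their median was -0.76 by edgeR.

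The deepest log2 fold change of a member between 7 and 14 d was that of 237880 in EcM (-2.33 ± 0.37), of 291926 in ExM and of 709888 in FLM. The last of these, not annotated, had 39.99, 33.5 and 30.3 CPM at 14 d against 106, 116 and 122 CPM at 7 d in EcM. It reached 30.7 and 29.8 CPM against 122, 129 and 138 CPM in ExM, and 30.3, 33.9 and 21.8 CPM against 218, 292 and 191 CPM in FLM. Its log2 fold changes were -1.73 ± 0.20 in EcM, -2.18 ± 0.24 in ExM and -3.05 ± 0.21 in FLM (adjusted p = 4.2e-07, 6.82e-07 and 2.54e-10, edgeR). Gene model 291926, also without annotation, which had the deepest fall of all members over the course, changed by -2.23 ± 0.50, -3.02 ± 0.60 and -2.93 ± 0.50 in EcM, ExM and FLM (adjusted p = 0.0013, 0.00104 and 8.73e-05). The trehalose-related 306794 changed by -0.96 ± 0.16 in EcM, -1.05 ± 0.18 in ExM and -1.04 ± 0.16 in FLM, close to the 2-fold limit. The phosphatase 474696 was called in all kinds, at -1.02 ± 0.30, -1.05 ± 0.35 and -1.77 ± 0.31, but the EcM call was lost without 7 d replicate 3 or 14 d replicate 2 or 3 (-0.96 to -0.99, under 2-fold), and the ExM call, by adjusted p, without 7 d replicate 2 or 3 or either 14 d library.

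**Figure D5:**
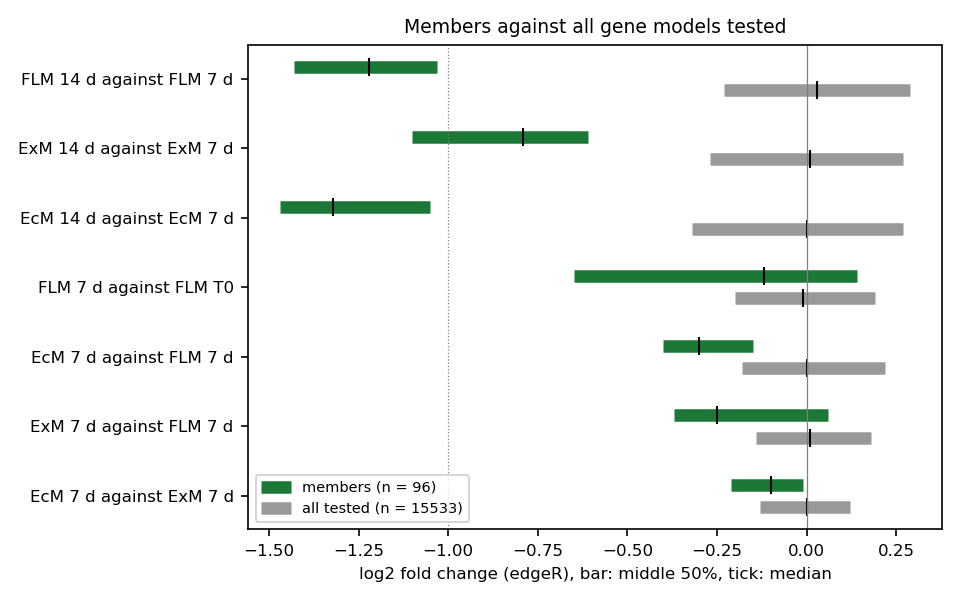
Log2 fold changes from edgeR (x axis) for 7 comparisons (rows); bars span the middle 50% and ticks mark the median of the 96 members (green) and of all 15533 gene models tested (grey), and the dotted line marks a 2-fold lower level. Members lie left of all gene models in the 14 d against 7 d rows and by a smaller distance in the rows that set EcM or ExM against FLM at 7 d.

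The state of the members at the start was asked by setting FLM at 7 d against T0. Members had a median log2 fold change of -0.12, against -0.01 for all gene models. At 7 d 5 members were called lower, against 0.567% of all gene models, and 21 were lower by adjusted p alone, against 4.92%. The called members were 453680, 237880, 441719, 661482 and 306794. Gene model 453680, annotated only as signal transduction or cytoskeleton, had 16.7, 12.5 and 12.9 CPM at 7 d against 36.4 and 36.9 CPM at T0, a log2 fold change of -1.44 ± 0.27 (adjusted p = 0.00166). The groups did not overlap. For 441719 it was -1.18 ± 0.24 (adjusted p = 0.0033) and for 306794 it was -1.03 ± 0.17 (adjusted p = 0.000424). The histones HTA16205 and HTR16204 and LbRNRbeta had 0.15 ± 0.17, 0.02 ± 0.28 and 0.09 ± 0.39, with adjusted p of 0.71, 0.986 and 0.939. These comparisons depend on the T0 pair, which differed within itself. Without T0 replicate 1 the log2 fold change of 441719 was -0.52, under 2-fold, and the median of members was -0.30. Without T0 replicate 2 that median turned to 0.08. Both fits leave a lone T0 library. Without 7 d replicate 2, 9 members were called lower, beside 77 of all 15536 gene models tested. Without 7 d replicate 3 it was 3, beside 41 of 15512. With the libraries of these groups alone 0 members were called lower, beside 2 of 14871 gene models. The call of 306794 was lost without T0 replicate 1, where it was just under 2-fold, and that of 237880 under 6 alternatives.

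Levels with and without a plant were tested at 7 d, the day not used by the rule. The mean was lower in EcM than in FLM for 88 of the 96 members and lower in ExM than in FLM for 76, on the library-total scale. The share of all gene models was not counted on this scale. After the TMM scaling of edgeR the median log2 fold change of members was -0.30 for EcM against FLM and -0.25 for ExM against FLM, where the medians of all gene models were 0.00 and 0.01. After that scaling 80 members were below 0 in EcM and 65 in ExM, against 49.5% and 48.4% of all gene models. By adjusted p alone 6 members were lower in EcM, against 4.48% of all gene models, and 3 were lower in ExM, against 0.927%. The 3 shared by both were 709888, 446995 and 667515, none of them annotated. The other 3 in EcM were the H2A gene HTA16205, 308587 and 597800. The EcM count was not far above the share of all gene models. In the whole list of DNA replication, histones and cell cycle, 139 gene models were tested for EcM against FLM. Of these, 0 were called lower and 11 higher, with a median of 0.05. The 19 tested histones by symbol had a median of -0.32, with 0 called either way. No member was called 2-fold lower by edgeR or DESeq2, though 1 was in EcM by edgeR without FLM 7 d replicate 3, and at an unadjusted p under 0.05 15 members were lower and 1 higher in EcM, and 11 lower and 6 higher in ExM. Of the 15533 gene models, 1722 were lower and 2470 higher in EcM at that p, and 1067 lower and 1862 higher in ExM. The deepest of the 6 was 709888, with 106, 116 and 122 CPM in EcM and 122, 129 and 138 CPM in ExM, against 218, 292 and 191 CPM in FLM. Its log2 fold changes were -0.90 ± 0.20 in EcM (adjusted p = 0.00298) and -0.73 ± 0.20 in ExM (adjusted p = 0.0263). The value of 291926 in EcM was -1.23 ± 0.47 (adjusted p = 0.0832). HTA16205 had -0.52 ± 0.16 in EcM (adjusted p = 0.0246) and -0.34 ± 0.16 in ExM (adjusted p = 0.222). The comparisons at 7 d, with T0 and with 14 d share the 7 d libraries and are not independent of each other.

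One member stood out in the other direction. Gene model 237880, annotated as a carbonate dehydratase, the enzyme that interconverts carbon dioxide and bicarbonate, and predicted as a small secreted protein, had 19.3, 13.1 and 11.7 CPM in EcM and 16.9, 19.6 and 21.6 CPM in ExM at 7 d, against 5.36, 5.30 and 5.35 CPM in FLM. Neither EcM nor ExM overlapped FLM. The log2 fold change was 1.60 ± 0.34 in EcM (adjusted p = 0.0023) and 1.98 ± 0.34 in ExM (adjusted p = 0.000733). It was the only member called higher in either comparison, where 3.68% and 1.97% of all gene models were called higher. At 14 d it had 4.19, 2.46 and 2.05 CPM in EcM and 5.30 and 3.80 CPM in ExM, against 3.55, 2.94 and 1.35 CPM in FLM. In FLM it had reached 53.7% of its fall by 7 d, and in EcM and ExM 26.6% and 17.98%.

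EcM was also set against ExM at 7 d, both from plates with a plant. The members had a median log2 fold change of -0.10, against 0.00 for all gene models. Of the 96, 73 were below 0, against 49% of all gene models. One member was lower in EcM by adjusted p alone, against 0.592% of all gene models: 634625, not annotated, at -0.53 ± 0.13 (adjusted p = 0.0397). None passed the 2-fold limit by edgeR or DESeq2, and at an unadjusted p under 0.05 5 members were lower and 0 higher, beside 814 lower and 703 higher of the 15533 gene models. Root tissue was sampled in EcM alone, and its part in these differences was not tested.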

How the data were processed

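Libraries were made by the authors with a stranded mRNA kit. After trimming, read pairs were mapped to the v2 transcripts of L. bicolor in CLC Genomics Workbench, and a read could hit several transcripts. They deposited, for each library, raw read counts, not normalized, and RPKM values scaled by the authors to transcript length and library size. Whether the counts are of uniquely placed reads is not given in the sources used here. Members were found from CPM (count over library total). RPKM served for transcript lengths and 1 alternative. Counts were tested with edgeR 4.0.16 (R 4.3.3): filterByExpr by group (minimum count 10, total 15), TMM, 1 coefficient for each of 13 groups, robust quasi-likelihood F-test, Benjamini-Hochberg adjustment over all gene models, two-sided. DESeq2 1.42.0 was an alternative. The SE is the log2 fold change over the square root of F. The closest 2 libraries of a group differed by more than counting noise (chi-square over its degrees of freedom 4.59).

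Members and lists were chosen with earlier results of these data known. Named members are the 8 most abundant, the 4 with the deepest fall, the 2 most abundant of each list with 2 or more members, the 3 earliest and 3 latest to fall, up to 3 called per comparison at 7 d or against T0, and those next to the limit. The histone list and other members named for their annotation were chosen after their values were seen. RefSeq V1.0 served for symbols and neighbours, and 36 members matched it by number. Keyword lists read the study's annotation text only, and "posttranslational" was kept out of the translation list. Promoter motifs and sequences were not analysed here.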

Additional observations from a re-analysis of the deposited data

Results flagged for a closer look

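Gene model 305228, a member with no annotation, moved in opposite directions between 3 and 7 d with and without a plant. It had 117, 115 and 131 CPM in EcM at 7 d against 141, 150 and 147 CPM at 3 d, and 118, 133 and 114 CPM in ExM at 7 d against 140, 144 and 144 CPM at 3 d. In FLM it had 153, 167 and 177 CPM at 7 d against 145, 151 and 153 CPM at 3 d. The 7 d libraries lay below all 3 d libraries in EcM and ExM and above all of them in FLM. The log2 change in EcM minus that in FLM was -0.4255, and in ExM minus that in FLM -0.3785. This difference was not tested. At 7 d itself edgeR gave -0.33 ± 0.23 for EcM against FLM (adjusted p = 0.395) and -0.33 ± 0.23 for ExM against FLM (adjusted p = 0.491).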

How the results depend on the processing

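The 96 members became 45 at a limit of 0.2, 38 with a plant ratio window of 0.67 to 1.5 and 55 with group medians, of which 45, 38 and 51 were among the 96. Leaving out 1 library gave 58 to 105 members, the lowest without FLM 21 d replicate 2. The median share of the ExM fall done by 14 d was 55.2% with TMM library sizes and 49.6% to 57.6% without 1 library. By adjusted p alone, members lower at 14 d than at 7 d in ExM were 55, members lower at FLM 7 d than at T0 were 21, and members lower at 7 d were 6 for EcM against FLM, 3 for ExM against FLM and 1 for EcM against ExM. All gene models lower at 14 d by adjusted p alone were 2764 in EcM, 1570 in ExM and 2283 in FLM, those lower in FLM at 7 d than at T0 were 764, and those higher at 7 d than in FLM were 1404 in EcM and 628 in ExM. A fit of only the groups compared called 0 members and 2 gene models lower in FLM at 7 d than at T0, and 246 gene models in EcM and 161 in ExM higher than in FLM. Leaving out 1 library gave 63 to 84 members lower at 14 d in FLM, 26 to 32 in ExM and 71 to 79 in EcM, and 3 to 14 lower at 7 d than at T0, with 3 called higher without T0 replicate 2 and 0 without any other library. For EcM against FLM at 7 d it gave 0 to 1 members lower. For all gene models it gave 151 to 548 lower at 14 d in ExM, 41 to 287 lower in FLM at 7 d than at T0, 240 to 668 higher in EcM and 125 to 419 higher in ExM than in FLM at 7 d. The median log2 fold change of members from T0 to 7 d was -0.30 without T0 replicate 1 and turned to 0.08 without T0 replicate 2. Of 58 calls of named gene models, 10 were lost under at least 1 alternative and 0 reversed. Among them, 237880 against T0 had adjusted p up to 0.226. The causes were not tested.

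Same-numbered libraries did not deviate together, with correlations from -0.449 to 0.081, and the labels give the number no further meaning. With the replicate number as a block, members lower at 14 d were 77 in FLM, 32 in ExM and 73 in EcM, and 4 members were lower in FLM at 7 d than at T0. FLM T0 and ExM 14 d had 2 libraries each, so leaving out 1 left a lone library that was assumed to vary like the other groups.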
